A study of Homo sapiens with 6 samples.

Results

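The stress factor CHOP, encoded by DDIT3, was measured together with the C/EBP factors it pairs with, the Tribbles pseudokinases and a pair of further stress genes in NCI-H69 cells after 48 h with the ABL kinase inhibitor GNF5 or with its vehicle DMSO. The group is a list of 10 genes named by symbol: DDIT3, CEBPA, CEBPB, CEBPD, CEBPG, ATF3, TRIB1, TRIB2, TRIB3 and CHAC1. All 10 symbols matched 1 row each of the 60671 gene rows in the count files, and all 10 passed the expression filter that kept 20734 genes for testing. NCI-H69 is an established human line from a neuroendocrine small cell lung cancer, labelled wild type in both groups. GNF5 inhibits ABL kinases by occupying their myristoyl pocket, away from the ATP site. RNA was sequenced from 3 libraries of DMSO-treated cells and 3 of cells given GNF5 at 20 µM. The protocol text writes that dose as 20 mM, and the conflict was not settled. Whether each replicate was a culture of its own is not given, so the p-values reflect only how far these libraries spread, which may be technical. The study was made in 1 line, and its title asks about conflicts between transcription and replication when ABL kinases are inactive.

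C/EBP proteins are transcription factors of the basic leucine zipper (bZIP) class, which bind DNA as pairs. CHOP is a member of the class that pairs with C/EBP partners, and its altered basic region keeps these pairs from the usual C/EBP sites. When eIF2alpha is phosphorylated, as in endoplasmic reticulum (ER) stress or amino acid shortage, the factor ATF4 is translated and induces DDIT3, ATF3, TRIB3 and CHAC1. C/EBP gamma pairs with ATF4. Tribbles proteins are kinase-like scaffolds without normal kinase activity. TRIB1 and TRIB2 bring C/EBP alpha to the ubiquitin ligase COP1 for degradation, and TRIB3 binds ATF4, CHOP and the kinase AKT. CHAC1 degrades glutathione.

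With GNF5, 8 of the 10 genes rose and 2 fell, the largest rise being TRIB3 at 10.9-fold and the next DDIT3 at 5.36-fold. Among all tested genes, 61.6% were called, 31% higher and 30.7% lower, at an adjusted p under 0.05 (edgeR's quasi-likelihood test with Benjamini-Hochberg adjustment). Of the 10 genes, 7 were called and at least 2-fold higher, where 4.95% of all tested genes were. The median log2 fold change of the 10 was 1.33, beside 0.0057 over all tested genes. The 10 genes were chosen with earlier results of these data known, so these contrasts only describe the list. The values of the groups did not overlap for any of the 10, which was so for 65.9% of all tested genes. The members that fell were CEBPD and TRIB2.

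Promoter sequences are shown for DDIT3, CHAC1 and CEBPG, the 3 members in which a searched motif was found near a start site. TRIB3, CEBPB, ATF3 and CEBPA, which rose too, and TRIB2, which fell, had windows without a match. Any link between a motif and a change was not tested. RefSeq promoter windows of GRCh38.p14, each running from 250 bases before to 50 after an annotated start, matched 8 of the 10 genes with 14 windows. CEBPD and TRIB1 had no window. The motifs searched on both strands were TTGCATCA (the core of the amino acid response element, a site for ATF4 with a C/EBP partner), TGACGTCA (the cAMP response element), TGACTCA (an AP-1 site), TTGCGCAA (a C/EBP palindrome) and the ER stress element, which is CCAAT, a spacer of 9 bases and CCACG. The last was also searched in a shortened form without its closing base, so the forms overlap. In the stretches below, capitals mark the match. CHAC1 is on the plus strand at chr15:40953251-40953280, inside a long exon that the files' annotation gives this gene, and its TTGCATCA begins 209 bases before the RefSeq start. CEBPG is on the plus strand at chr19:33374060-33374089, inside the annotated gene but outside its exons. It carries the same motif on the opposite strand, 42 bases before the later of its RefSeq starts. DDIT3 is on the minus strand at chr12:57520518-57520767. That stretch lies inside the annotated gene, which runs from 57516588 to 57521737, outside its exons and directly upstream of one of them. TGACTCA begins 238 bases and the shortened ER stress element 97 bases before the more upstream of the RefSeq starts of DDIT3.
CHAC1: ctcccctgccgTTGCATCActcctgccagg
CEBPG: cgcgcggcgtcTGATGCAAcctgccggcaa
DDIT3: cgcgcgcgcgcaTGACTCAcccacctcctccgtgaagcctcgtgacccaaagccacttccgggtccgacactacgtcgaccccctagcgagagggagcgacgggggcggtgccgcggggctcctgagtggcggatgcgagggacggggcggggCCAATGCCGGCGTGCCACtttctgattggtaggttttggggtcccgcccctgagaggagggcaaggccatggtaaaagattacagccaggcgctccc

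Over all 35116 RefSeq windows, 0.866% held TTGCATCA, 4.95% TGACTCA and 0.316% the shortened ER stress element. The full ER stress element, found in 0.0769% of windows, had no match in the windows of the members, and neither had TGACGTCA (1.85% of windows) or TTGCGCAA (0.151%). These matches are descriptions of letters in short windows. They are not measured binding sites, and bases outside these windows were not searched.

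DDIT3 (ENSG00000175197, chromosome 12, 57516588 to 57521737, minus strand, GRCh38) was expressed with DMSO at 25.8, 28.4 and 27.3 CPM (counts per 1000000, normalised by the TMM method) in the 3 libraries. With GNF5 it stood at 156.4, 137.7 and 143.2 CPM. Every GNF5 library was far above every DMSO library, and the highest GNF5 value came from replicate 1. The log2 fold change was 2.42 ± 0.047 (SE, n = 3 against 3, edgeR adjusted p = 1.87e-25), higher than for 99.5% of all tested genes. Of its exon bases 8.03% are shared with an unnamed gene model on the same strand, and fragments assigned to both would have been left out. All 105 exon bases of that model lie in DDIT3 exons. Its 0 counts thus follow from the counting rule and say nothing about its expression. The genes MARS1, a tRNA synthetase, and MBD6 overlap the exons of DDIT3 on the other strand, and the counting used strand.

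ATF3 (ENSG00000162772, chromosome 1, 212565334 to 212620777, plus strand) encodes a bZIP factor that stress induces and that can repress its targets. Its level was 30.9, 33.9 and 35.9 CPM with DMSO and 83.1, 79.8 and 79.3 with GNF5. The groups were well apart (log2 fold change 1.27 ± 0.048, edgeR adjusted p = 5.39e-19).

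CHAC1 (ENSG00000128965, chromosome 15, 40952962 to 40956512, plus strand), the glutathione-degrading enzyme whose promoter stretch is shown above, had 13.6, 16.8 and 17.6 CPM with DMSO. With GNF5 the values were 39.1, 42.9 and 41.6 CPM. The standard deviation (SD) of its DMSO libraries was 13.2% of their mean, but the groups stayed apart, and the log2 fold change was 1.36 ± 0.069 (edgeR adjusted p = 1.18e-13).

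Of the C/EBP genes proper, CEBPB, CEBPG and CEBPA rose and CEBPD fell. CEBPB (ENSG00000172216, chromosome 20, 50190830 to 50192668, plus strand) encodes C/EBP beta, a factor of inflammatory and stress responses that pairs with CHOP. It had 20.6, 19.7 and 25 CPM with DMSO and 85.9, 84.4 and 87.2 with GNF5, a rise of 3.94-fold. The SD of the GNF5 values was 1.67% of their mean and that of the DMSO values 13.0%, DMSO replicate 3 being the highest of its group. The log2 fold change was 1.98 ± 0.061 (edgeR adjusted p = 2.82e-17).

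CEBPG (ENSG00000153879, chromosome 19, 33373685 to 33382686, plus strand), a short C/EBP protein without a classical activation domain, had the most counts of the 10 genes over the 6 libraries together. Its level was 127.7, 138.8 and 139.0 CPM with DMSO and 340.9, 319.8 and 334.7 with GNF5. The libraries of each group were close together and the groups far apart (log2 fold change 1.30 ± 0.037, edgeR adjusted p = 7.76e-22).

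CEBPA (ENSG00000245848, chromosome 19, 33299934 to 33302534, minus strand), which encodes C/EBP alpha, a factor of myeloid, fat and liver cell differentiation, was close to silent. It had 37, 54 and 30 raw counts in the DMSO libraries and 95, 96 and 109 in the GNF5 libraries, or 0.69 ± 0.19 and 1.92 ± 0.26 CPM (SD, n = 3). It rose by 1.47 ± 0.218 on the log2 scale (edgeR adjusted p = 1.18e-06), with the largest SE of the 10 genes. Only 28.0% of tested genes had a lower mean level. The antisense and divergent RNAs around CEBPA, among them CEBPA-DT with 19 counts over the 6 libraries, were too low to test.

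CEBPD (ENSG00000221869, chromosome 8, 47736913 to 47738164, minus strand), which encodes C/EBP delta, an early factor of the acute-phase response, went the other way from its relatives. It had 50.9, 47.9 and 49.8 CPM with DMSO and 38.9, 42.1 and 42.5 with GNF5. The groups did not overlap, although the change was small (log2 fold change -0.27 ± 0.046, edgeR adjusted p = 1.3e-05). CEBPE, the remaining family gene and no member of the list, had 0 counts in all 6 libraries together, so that counting error alone would allow up to 0.00903 CPM.

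The Tribbles genes moved apart. TRIB3 (ENSG00000101255, chromosome 20, 362835 to 397559, plus strand), the Tribbles gene known as a target of ATF4 and CHOP, had 35.6, 40.0 and 44.6 CPM with DMSO and 447.9, 423.6 and 433.6 with GNF5. Its log2 fold change of 3.44 ± 0.064 (edgeR adjusted p = 4.44e-14) was the 22nd highest of the 20734 tested genes. In raw counts it went from 2010, 2422 and 2571 to 26304, 19649 and 22718. No GNF5 library came near a DMSO library.

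TRIB1 (ENSG00000173334, chromosome 8, 125430358 to 125438403, plus strand) rose less, from 9.74, 9.01 and 10.1 CPM with DMSO to 15.9, 14.2 and 15.7 with GNF5. Its log2 fold change was 0.67 ± 0.075 (edgeR adjusted p = 8.55e-09), inside the range from -1.21 to 1.00 that held the middle of all tested genes between the 5th and 95th percentiles. TRIB2 (ENSG00000071575, chromosome 2, 12716889 to 12742734, plus strand) was low and fell, from 2.57, 3.11 and 2.81 CPM to 1.498, 1.962 and 1.756. Its raw counts were 145, 188 and 162 with DMSO and 88, 91 and 92 with GNF5, and its log2 fold change was -0.71 ± 0.154 (edgeR adjusted p = 0.000217). The TRIB2 groups did not overlap.

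**Figure D1:**
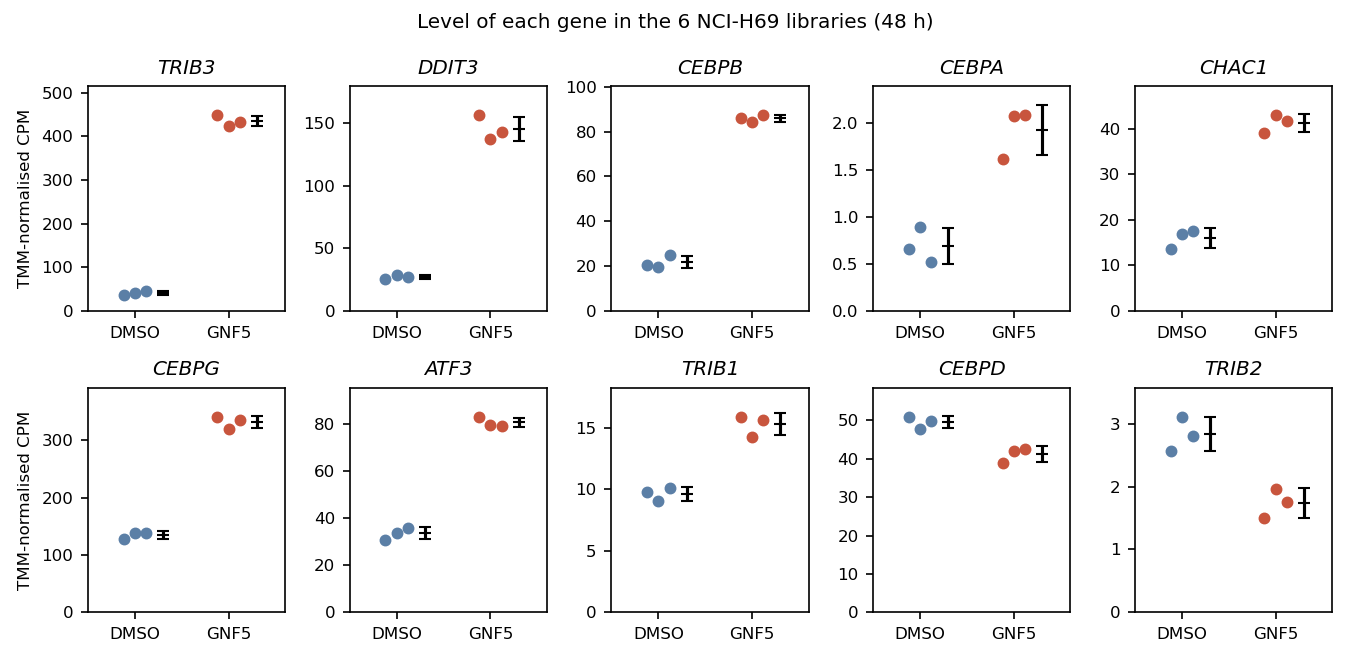
TMM-normalised CPM (linear axis from 0, a separate scale for each gene) of the 10 genes in 3 DMSO and 3 GNF5 libraries; points are libraries, and the black mark with its bar is the mean ± SD. The GNF5 points lie above the DMSO points in 8 panels, from TRIB3 (40.1 to 435.0 CPM on average) to TRIB1 (9.62 to 15.3), and below them for CEBPD and TRIB2.

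Ranked by fold change, TRIB3 stood above DDIT3 by 1.02 ± 0.079 on the log2 scale (SE, combining the errors of both genes as if independent) and DDIT3 above CEBPB by 0.44 ± 0.078. CEBPA, CHAC1, CEBPG and ATF3 followed, each differing from the next by less than 2 SE. CEBPA exceeded CHAC1 by 0.11 ± 0.229, CHAC1 exceeded CEBPG by 0.065 ± 0.078, and CEBPG exceeded ATF3 by 0.03 ± 0.061. TRIB1 lay 0.60 ± 0.089 below ATF3, CEBPD 0.93 ± 0.088 below TRIB1, and TRIB2 0.44 ± 0.161 below CEBPD.

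**Figure D2:**
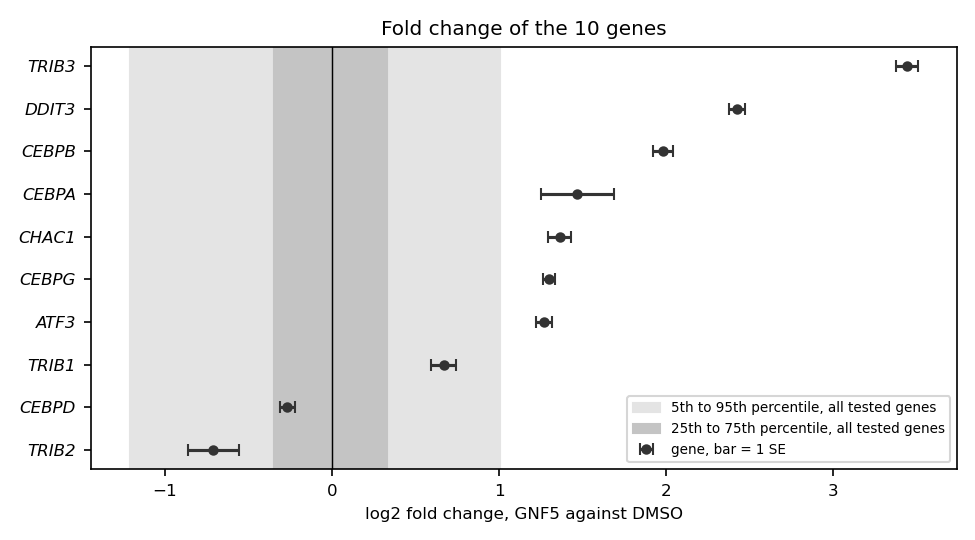
Log2 fold change of GNF5 against DMSO for the 10 genes (points, bar 1 SE), over bands that hold all tested genes between the 25th and 75th and between the 5th and 95th percentiles. TRIB3, DDIT3, CEBPB, CEBPA, CHAC1, CEBPG and ATF3 lie above the wider band, which ends at 1.00, whereas TRIB1, CEBPD and TRIB2 lie inside it.

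Levels of different genes were compared per length, as FPKM (CPM divided by the kilobases of annotated exon). The length is the sum of all exons annotated for the gene, so the level of a gene with exons that these cells do not use is understated. With DMSO, CEBPD was the highest of the 10, at 39.6 ± 1.23 FPKM (SD, n = 3), followed by CEBPG at 33.3 ± 1.6 and DDIT3 at 20.8 ± 0.97. TRIB3 (13.2 ± 1.49) and CEBPB (11.8 ± 1.54) had overlapping ranges, and so had ATF3 (8.31 ± 0.63) and CHAC1 (7.81 ± 1.03). TRIB1, TRIB2 and CEBPA came last, at 2.35, 0.617 and 0.265 FPKM. With GNF5 the order changed. TRIB3 was the highest, at 143.6 ± 4.03 FPKM, then DDIT3 at 111.5 ± 7.33, CEBPG at 81.8 ± 2.68 and CEBPB at 46.7 ± 0.78. CEBPD was the fifth, at 32.9 ± 1.61 FPKM. CHAC1 and ATF3 again had overlapping ranges, and TRIB2, at 0.379, took the last place from CEBPA, at 0.739.

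Within the C/EBP family RNA, the share of DDIT3 grew with GNF5 and that of CEBPD shrank. The level of CEBPD itself fell only from 39.6 to 32.9 FPKM, while the family sum rose. The summed level of DDIT3, CEBPA, CEBPB, CEBPD, CEBPE and CEBPG per exon length was 105.8 ± 2.72 FPKM with DMSO and 273.6 ± 8.79 with GNF5. DDIT3 made up 19.1%, 20.6% and 19.2% of it in the DMSO libraries and 42.4%, 39.8% and 39.9% in the GNF5 libraries. CEBPD made up 37.4% ± 1.67 and then 12.04% ± 0.91, CEBPB 11.2% ± 1.19 and then 17.1% ± 0.44, and CEBPG 31.5% ± 1.03 and then 29.9% ± 0.16. The DDIT3 share rose in mean by 21.1 percentage points with no overlap between groups, and the two-sided exact permutation p was 0.1, the smallest that 3 libraries against 3 can give. In raw counts, not divided by length, the DDIT3 share was 11.6% ± 0.39 and 24.0% ± 0.91, a difference of 12.4 points, so its size depends on the annotated lengths.

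Within the Tribbles family, TRIB3 was the main RNA in both groups. It made up 80.01%, 82.1% and 82.7% of the summed level per exon length with DMSO and 97.2%, 97.3% and 97.2% with GNF5 (two-sided exact permutation p = 0.1, the smallest possible). The share of TRIB1 was 14.6% ± 1.41 and then 2.52% ± 0.092, although its level rose. The family sum was 16.2 ± 1.56 FPKM with DMSO and 147.7 ± 4.17 with GNF5.

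**Figure D3:**
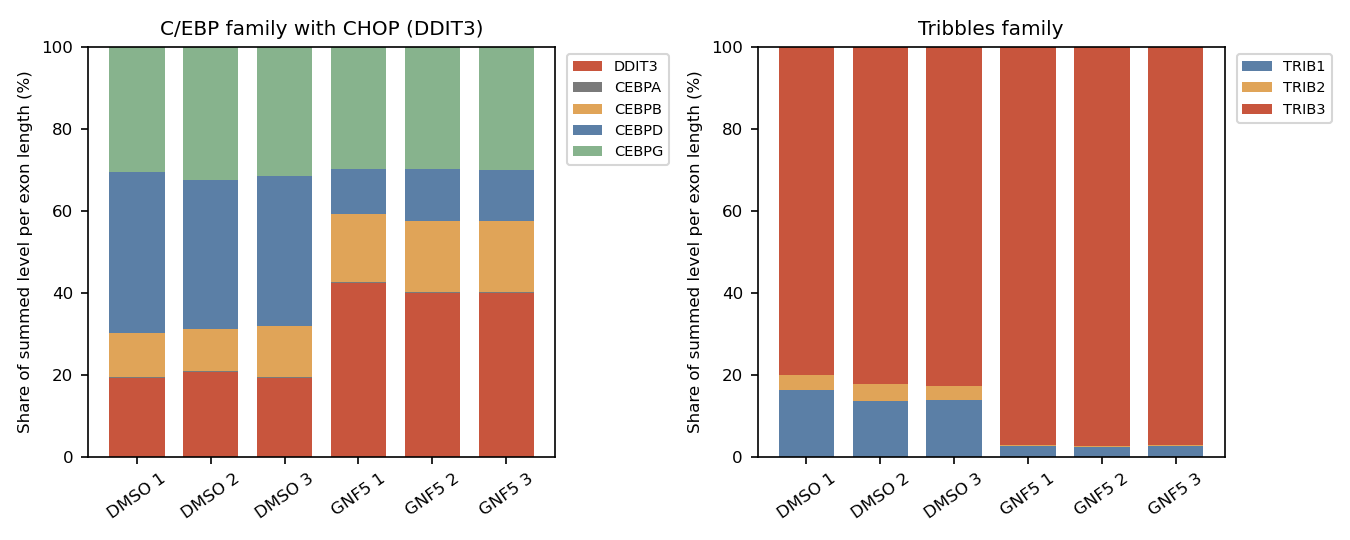
Share (%) of each gene in the summed level per exon length of the C/EBP family with DDIT3 (left; CEBPE had 0 counts and is not drawn) and of the Tribbles family (right), a bar for each library. DDIT3 makes up 19.1 to 20.6% of the bars with DMSO and 39.8 to 42.4% with GNF5, and TRIB3 80.01 to 82.7% and 97.2 to 97.3%.

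Genes near the members were also counted by strand. CEBPB-AS1, whose exons overlap CEBPB on the other strand, was low and rose with it, from 0.889 ± 0.197 to 1.68 ± 0.25 CPM (log2 fold change 0.92 ± 0.21, edgeR adjusted p = 0.000382). MIR616 lies within DDIT3 on the same strand and rose from 0.265 ± 0.1 to 0.658 ± 0.074 CPM (log2 fold change 1.31 ± 0.335, edgeR adjusted p = 0.00128). Fragments of unspliced DDIT3 RNA could be counted there, so this value is no measure of the mature microRNA.

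Most listed genes upstream of CHOP rose. Of 10 eIF2 kinases and ER stress sensors, all tested, 7 rose and 0 fell, with a median log2 fold change of 0.33. Of all tested genes, 31% rose and 30.7% fell. The smallest of the 7 rises were those of EIF2AK2, EIF2AK4 and DELE1 (0.44, 0.22 and 0.15). ERN1, the ER sensor IRE1, rose from 27.8 ± 0.29 to 92.5 ± 3.57 CPM, ATF6, a membrane-bound ER stress factor, by 0.99 ± 0.038 on the log2 scale, XBP1, the factor made by IRE1 splicing, by 0.60 ± 0.032, and EIF2AK3, the ER kinase PERK, by 0.70 ± 0.052. EIF2AK1, EIF2S1 and OMA1 did not pass (log2 fold changes -0.06, -0.03 and 0.04), but EIF2AK1 was called lower with upper-quartile factors and with a filter at a mean of 1 CPM (edgeR adjusted p = 0.0193 and 0.0388). Of 18 bZIP partners of C/EBP factors and CHOP, 15 were tested, 10 rose and 1, JUNB, fell (-0.36 ± 0.045), with a median of 0.28. The shares to set beside these counts are again 31% higher and 30.7% lower. ATF4 rose from 382.0 ± 7.02 to 738.6 ± 5.62 CPM, and ATF5, NFIL3 and JUN rose by 1.19, 0.67 and 0.44. JDP2 had the largest rise of the list, 1.70 ± 0.35 (edgeR adjusted p = 0.00326), at a low level (1.06 ± 0.62 to 3.47 ± 0.54 CPM). FOS, FOSB, FOSL2 and BATF2 did not pass, although FOSL2 was called lower under the same pair of settings (edgeR adjusted p = 0.027 and 0.041) and without DMSO replicate 1 or GNF5 replicate 3 (0.0273 and 0.0473), and CEBPE, FOSL1 and BATF were too low to test.

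Of 18 targets of CHOP and ATF4 in stress recovery and cell death, 13 rose and 2 fell, with a median log2 fold change of 0.49. Of all tested genes, 31% rose and 30.7% fell. ASNS, asparagine synthetase, rose from 11.7 ± 0.29 to 39.1 ± 1.76 CPM, SESN2, a sestrin that restrains mTORC1, from 26.8 ± 1.49 to 68.1 ± 0.78, and WARS1, a tRNA synthetase, by 0.96 ± 0.032 on the log2 scale. ATF5 belongs to this list too. NUPR1, a stress-induced chromatin protein, had the largest rise of the list, 2.22 ± 0.109. PPP1R15A (GADD34), which reverses eIF2alpha phosphorylation, rose by 1.80 ± 0.066 and its constitutive relative PPP1R15B by 0.49 ± 0.034. The BH3-only genes BBC3 and PMAIP1 both rose by 0.47, and the survival gene BCL2 by 0.29. MARS1, VLDLR and ERO1B rose by 0.85, 0.49 and 0.21. BCL2L11 (BIM) fell (-0.28 ± 0.045), as did DDIT4 (-0.79 ± 0.04). TNFRSF10B, the death receptor DR5 that CHOP is known to induce, was near silent, with 76 counts over the 6 libraries, and did not pass (-0.38 ± 0.44, edgeR adjusted p = 0.471). ERO1A, an ER oxidase also known as a CHOP target, stood at 150.9 ± 4.75 and 152.4 ± 3.92 CPM (edgeR adjusted p = 0.757). TNFRSF10A did not pass either (0.60, edgeR adjusted p = 0.135), but was called higher without DMSO replicate 2 (edgeR adjusted p = 0.0206).

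Partners of the Tribbles proteins went both ways. Of 13, 5 rose and 5 fell, with a median log2 fold change of 0.0067, and 4 rose with upper-quartile factors, the 1 CPM filter, DESeq2 or the replicate number as a block. These shares are not far from the 31% higher and 30.7% lower of all tested genes, whose median was 0.0057. COP1, the ubiquitin ligase that TRIB1 and TRIB2 recruit, rose slightly (0.22 ± 0.043), and STK40, a pseudokinase related to Tribbles, by 0.62 ± 0.056. AKT1, a kinase that TRIB3 binds, fell (-0.47 ± 0.039), as did ACACA, a fatty acid synthesis enzyme that TRIB3 brings to COP1 (-0.28 ± 0.033), and DDB1 (-0.41 ± 0.032). DET1, CUL4B and AKT2 did not pass.

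Around CHAC1, 13 genes of glutathione synthesis and gamma-glutamyl breakdown were listed and 10 tested. Of these 3 rose and 3 fell, with a median of -0.01, shares close to the 31% and 30.7% of all tested genes. CHAC2, the constitutive relative of CHAC1, fell from 10.9 ± 0.76 to 5.82 ± 0.96 CPM while CHAC1 rose. GGACT fell by 1.24 ± 0.05 on the log2 scale. OPLAH, the oxoprolinase that turns the product of CHAC1 and GGCT into glutamate, rose from 4.01 ± 0.45 to 15.4 ± 0.87 CPM. GCLC, the catalytic subunit of glutamate-cysteine ligase, rose by 0.47 ± 0.037 and CNDP2 by 0.15, while GGCT fell (-0.19 ± 0.038). GCLM, GSS, GGT1 and GGT7 did not pass (log2 fold changes 0.005, -0.03, -0.53 and 0.06), and GGT5, GGT6 and ANPEP were too low to test.

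Classical differentiation and acute-phase targets of C/EBP factors were mostly too low to test. Of 16, 4 were tested, and 3 rose (PPARG, LPL and CXCL8, by 0.73, 0.45 and 0.17) while G0S2, with 64 counts in all, fell (-1.53 ± 0.515, edgeR adjusted p = 0.0114). These 4 genes are too few to compare with the 31% higher and 30.7% lower of all tested genes. The fall of G0S2 did not pass with DESeq2 (adjusted p = 0.062), without DMSO replicate 3 (edgeR adjusted p = 0.155) or without GNF5 replicate 1 (edgeR adjusted p = 0.0625), and the rise of CXCL8 did not pass without DMSO replicate 2 (edgeR adjusted p = 0.0576). SAA1, LCN2 and C3 had 0 counts in the 6 libraries, and IL6 had 1.

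**Figure D4:**
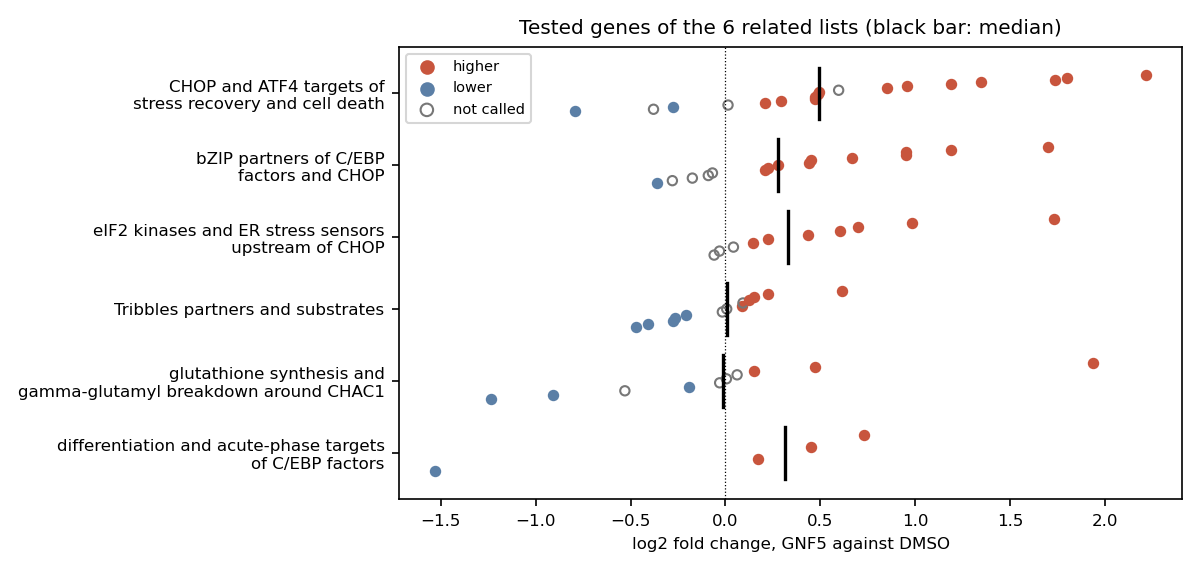
Log2 fold change of each tested gene (points) in the 6 related lists, coloured by call at an adjusted p under 0.05, with the median of each list as a black bar. Medians range from -0.01 for the glutathione list to 0.49 for the CHOP and ATF4 targets.

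The genes with the profile nearest to each member were found by Euclidean distance between mean-centred log2 CPM over the 6 libraries, which in a design of 2 groups mostly follows the size of the change. Nearest to DDIT3 were WIPI1 (distance 0.167), ASS1 (0.253) and GDF15 (0.265), and to CHAC1 WBP2NL, BGN and SESN2 (0.155 to 0.195). Nearest to CEBPB were RHBDL1, COL16A1 and MVP (0.111 to 0.199), to CEBPG NUCB2, JMY and CREG1 (0.0728 to 0.0934), and to ATF3 SGSM1, ISG15 and ST6GALNAC4 (0.0855 to 0.109). TRIB3 had no neighbour as close, the nearest being RAB3IL1 (0.338), L3MBTL2-AS1 (0.428) and PRSS1 (0.495), the last with near-identical copies and so uncertain.
The neighbours of CEBPA were AHR, UPP1 and PCDHAC1, whose exons are shared within its gene cluster (0.275 to 0.402), those of CEBPD PGBD5, GSTP1 and SBF1 (0.0356 to 0.0386), those of TRIB1 ELMO3, AASS and FBXO4 (0.0602 to 0.0856), and those of TRIB2 H4C9, a histone gene with near-identical relatives, KCNJ6 and FAM78B (0.113 to 0.178).

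The libraries held 46148701 to 60697602 counts each, and 3 counts corresponded to 0.0494 to 0.065 CPM. Neuroendocrine markers were present in all of them, with CHGA, SYP, NCAM1, INSM1, DLL3, UCHL1 and ENO2 summing to 3010 to 3077 CPM with DMSO and 3195 to 3313 with GNF5. INSM1 held the largest part of that sum, and of the 7, NCAM1 (0.59 on the log2 scale) and DLL3 (0.26) rose and ENO2 (-0.63) and SYP (-0.27) fell. The leukocyte markers summed to 4.60 to 4.88 and 3.18 to 4.05 CPM, with CD3E at 0, and of 5 listed 0 rose and 1 fell. The fibroblast markers summed to 120.0 to 125.4 and 64.7 to 71.9 CPM, of which COL1A2 held most, with COL3A1 at 0, and of 5 listed 1 rose and 1 fell. Their part in the results was not tested. In bulk RNA, a change in each cell and a change in the number of cells that express a gene cannot be told apart. DMSO replicate 1 had the lowest value of its group for 6 of the 10 genes, and GNF5 replicate 2 for 5.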

How the data were processed

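RNA of 3 DMSO and 3 GNF5 libraries was analysed, grouped by the treatment label. The deposited values are raw fragment counts per gene. Per the file headers, the authors made them with featureCounts 1.6.1 on paired, reverse-stranded reads, using exons of Ensembl release 101 (GRCh38). With its default settings, multi-mapped fragments and those overlapping several genes are left out. GRCh37, STAR, Trim Galore, DESeq2 and HTSeq are listed, with no roles or versions, in the submitters' processing notes. The headers were followed here, and the alignment build stays unsettled. How RNA was selected for the libraries is not given in these sources.

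Symbols came from a gene name table, with an entry for 60401 of 60671 IDs. Counts were tested with edgeR 4.0.16 (R 4.3.3), TMM factors, the default expression filter (39937 genes with 0.063% of counts removed), a robust quasi-likelihood fit over all tested genes and Benjamini-Hochberg adjustment, calling at 0.05. The script was tested on simulated data. SE is the log2 fold change divided by the square root of F. Shares were compared by exact permutation tests (SciPy 1.17.1). No 2 libraries of a group were alike within sampling noise (chi-square per degree of freedom 3.18 to 8.76). The SE takes in the spread between libraries, whereas the limits given for counts of 0 cover counting error only.

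The members and gene lists were chosen with earlier results of these data known. Named are all members, up to 4 called genes of each list with the lowest p and a mean log2 CPM of at least 1, the 3 nearest profiles of each member, and genes starting within 5 kb of a member or sharing exon bases with it. COP1, JUNB, PPARG, G0S2, EIF2AK2, EIF2AK4, DELE1, the further CHOP and ATF4 targets, genes that did not pass and low genes were named after their values were seen. So were JDP2, GGCT and CNDP2. Alternatives were DESeq2 (1.42.0), other scalings and filters, a replicate block and leaving out each library. Some listed genes are not reported here.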

Additional observations from a re-analysis of the deposited data

How the results depend on the processing

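All 10 genes kept their direction and call in each of the 13 alternatives run, namely DESeq2's test, its size factors in edgeR, upper-quartile factors, library totals alone, no filter, a mean of at least 1 CPM, the replicate block, and the fit without each of the 6 libraries. The log2 fold change of DDIT3 ran from 2.37 to 2.47, that of TRIB3 from 3.36 to 3.52, that of CEBPA from 1.30 to 1.69, that of CEBPD from -0.30 to -0.22 and that of TRIB2 from -0.80 to -0.61, the last with adjusted p values up to 0.0031. No scaling moved the median of all tested genes by more than 0.1. Same-numbered libraries showed no shared deviation from their group means (correlations -0.0157, 0.0159 and 0.00082). This cannot tell whether they were handled as pairs, which the labels do not say. With the replicate block, 8 members were higher and 2 lower, and 6279 and 6196 of all genes, beside 6426 and 6356. Among the related lists, 2 bZIP partners were lower with upper-quartile factors and with the stricter filter, FOSL2 being added to JUNB, and 1 of the upstream sensors, EIF2AK1, was lower under each of these. Of the Tribbles partners, 4 rather than 5 were higher with upper-quartile factors, the stricter filter, DESeq2 and the replicate block. For C/EBP differentiation targets, 0 were lower with the stricter filter, which does not test G0S2, and 0 with DESeq2. The causes were otherwise not tested. Low counts limit CEBPA and TRIB2, whose errors were the largest.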
